A study of Mus musculus with 9 samples.

Results

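The 93 genes described here encode the nuclear subunits of the mitochondrial respiratory chain and of the ATP synthase. They were taken by symbol, as protein-coding genes present in all 4 deposited tables whose names begin with Nduf, Uqcr or Atp5, are Sdha, Sdhb, Sdhc, Sdhd, Cyc1 or Cycs, or begin with Cox followed by a digit from 4 to 8. They are 93 of 29386 gene identifiers and of 14183 protein-coding genes present in every table. By known role, 36 belong to complex I (7 core and 29 accessory subunits), 8 are complex I assembly factors of the Ndufaf group, 4 belong to complex II, 9 to complex III, 18 to complex IV and 17 to complex V, and Cycs encodes cytochrome c. Ndufa4 and its paralog Ndufa4l2 were placed with complex IV, where the Ndufa4 protein is known to sit despite its name.

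RNA was sequenced in 3 separate experiments on loss of Setdb1, a methyltransferase for lysine 9 of histone H3. Brown adipose tissue (BAT) came from 2 control mice (Setdb1 fl/fl; Adipoq-Cre-) and 2 Setdb1 AKO mice (Setdb1 fl/fl; Adipoq-Cre+), all carrying the floxed alleles. Primary brown adipocytes with floxed Setdb1 and Rosa26Cre-ERT2, a Cre activated by tamoxifen derivatives, gave 1 library after 4-hydroxytamoxifen (4-OHT, 1 μM) and 1 after its ethanol vehicle (ETOH). Other primary brown adipocytes gave 1 library after a control siRNA (siNC) and 2 after siRNA against Setdb1 (siSetdb1). Adipoq-Cre acts in adipocytes of every depot, and neither Cre-carrying mice with intact Setdb1 nor Cre-free cells given 4-OHT were among the samples. An effect of the Cre or of 4-OHT itself therefore cannot be told apart from loss of Setdb1. The titles of the 4 BAT samples carry a prefix, TN_CE, whose meaning is not given. The labels state no age, sex or diet. They do not say whether the siSetdb1 libraries came from separate cultures or from the same siRNA sequence. The p-values therefore reflect variation among these few libraries, which may be partly technical. Reads on genes numbered 15979479 to 16940622 per library in BAT, 17593799 to 18468152 in the siRNA experiment, and 29911734 and 30176359 in ETOH and 4-OHT.

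The respiratory chain passes electrons from NADH, through complex I, or from succinate, through complex II, to complex III and then by cytochrome c to complex IV, which reduces oxygen. Complexes I, III and IV pump protons across the inner mitochondrial membrane, and complex V, the ATP synthase, lets them back to make ATP. Brown fat is packed with mitochondria, and its uncoupling protein Ucp1 lets protons return without ATP being made, so that respiration gives heat. A few subunits exist as alternative isoforms that differ between tissues, and the mitochondrial genome encodes the remaining subunits of complexes I, III, IV and V.

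Promoter sequences of 5 members are shown because the isoform pairs Cox6b1 and Cox6b2, and Cox8a and Cox8b, differed in their values below, and because Atp5k was among the members with the lowest p in BAT and holds a motif of the respiratory gene regulator NRF1. Each window runs 5′ to 3′ on the minus strand, from 250 bases before the annotated start to 50 bases after it, from RefSeq on GRCm38.p6. Capitals mark CpG dinucleotides in the first 4 sequences and the NRF1 motif in the last. The windows are chr7:30626065-30626364 for Cox6b1, chr7:4753045-4753344 for Cox6b2, chr19:7217567-7217866 for Cox8a, chr7:140900397-140900696 for Cox8b and chr5:108434350-108434649 for Atp5k.
Cox6b1: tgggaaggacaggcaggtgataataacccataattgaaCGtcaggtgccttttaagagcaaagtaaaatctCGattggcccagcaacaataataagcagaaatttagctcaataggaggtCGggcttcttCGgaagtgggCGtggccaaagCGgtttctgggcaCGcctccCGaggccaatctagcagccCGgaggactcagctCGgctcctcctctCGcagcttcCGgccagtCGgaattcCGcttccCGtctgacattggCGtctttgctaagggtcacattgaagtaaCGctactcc
Cox6b2: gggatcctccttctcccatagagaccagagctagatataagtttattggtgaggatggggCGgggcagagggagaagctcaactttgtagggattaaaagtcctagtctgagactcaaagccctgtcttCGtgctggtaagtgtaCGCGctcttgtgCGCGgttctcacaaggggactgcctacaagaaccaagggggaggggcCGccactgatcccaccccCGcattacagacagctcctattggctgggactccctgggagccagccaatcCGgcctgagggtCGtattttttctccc
Cox8a: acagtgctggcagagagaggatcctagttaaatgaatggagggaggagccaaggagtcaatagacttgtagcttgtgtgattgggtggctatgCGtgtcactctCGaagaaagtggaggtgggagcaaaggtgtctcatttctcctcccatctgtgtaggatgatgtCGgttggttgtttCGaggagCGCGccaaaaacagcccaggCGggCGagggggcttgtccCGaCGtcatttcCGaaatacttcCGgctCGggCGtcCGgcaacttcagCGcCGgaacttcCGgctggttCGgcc
Cox8b: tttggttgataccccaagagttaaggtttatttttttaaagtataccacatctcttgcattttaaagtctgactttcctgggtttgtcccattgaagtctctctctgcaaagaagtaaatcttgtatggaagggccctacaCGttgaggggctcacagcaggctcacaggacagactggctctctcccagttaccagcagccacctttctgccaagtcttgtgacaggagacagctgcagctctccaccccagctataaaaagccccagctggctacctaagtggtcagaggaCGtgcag
Atp5k: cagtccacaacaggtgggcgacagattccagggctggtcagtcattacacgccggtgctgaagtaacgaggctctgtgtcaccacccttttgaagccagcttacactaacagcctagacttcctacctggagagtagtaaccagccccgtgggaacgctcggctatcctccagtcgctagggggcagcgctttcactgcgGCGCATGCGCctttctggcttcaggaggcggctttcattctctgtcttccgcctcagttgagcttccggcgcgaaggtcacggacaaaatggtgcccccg

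The widely expressed isoforms held more CpGs than their restricted partners, with 17 in Cox6b1 against 10 in Cox6b2 and 19 in Cox8a against 2 in Cox8b. A RefSeq promoter was matched for 76 of the 93 members. Their median was 20 CpGs per window of 300 bases, the same as the median of 20 over 10974 protein-coding genes of all 4 tables. The members had few CpG-poor windows: 5 of 76 (6.6%) held 10 or fewer, against 22.0% of those genes. These 5 were Cox8b (2), Cox7b (5), Cox7a1 (7), Ndufc2 (8) and Cox6b2 (10), of which Cox8b, Cox7a1 and Cox6b2 are tissue-restricted isoforms. The 10-base NRF1 motif marked in the Atp5k window, its own reverse complement, was found in 7 members (9.2%) against 2.21% of the protein-coding genes and 1.07% of all 27025 genes with a promoter, namely Atp5g2, Atp5k, Cox6a1, Ndufa11, Ndufaf4, Ndufaf5 and Uqcrc1. The motif ACCGGAAG of GABPA (also called NRF2), searched on both strands, was found in 7 members (9.2%) against 5.05% of the protein-coding genes, among them the complex II genes Sdhb and Sdhd. The motif TCAAGGTCA of the estrogen-related receptors, searched on both strands, was found in Atp5g3 and Sdhd (2.6%) against 0.31%. The 3 motifs do not overlap one another as spelled. These matches describe the letters of the windows only.

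Setdb1 itself was lower in every library with the gene deleted or knocked down. It read 455 and 473 normalised counts in control BAT and 156 and 191 in Setdb1 AKO BAT (log2 fold change -1.42, SE 0.19; limma, adjusted p = 0.0216). The siRNA libraries read 783.5 in siNC and 370.9 and 399.2 in siSetdb1 (log2 fold change -1.02; limma, adjusted p = 0.0526), and the count went from 1070 in ETOH to 620 in 4-OHT. Brown fat identity was present in BAT, with 88048 and 107183 normalised counts of Ucp1 in the controls.

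In BAT, no respiratory chain gene passed the test, and few members separated the genotypes. Of 92 members tested, 0 were called at an adjusted p below 0.05 by limma, edgeR or DESeq2, against a background of 1.68% of 14466 genes for limma (1% higher and 0.677% lower). At an unadjusted p below 0.05, limma held 3 members, Cox6b2, Atp5g1 and Atp5k, against 17.7% of all genes, and edgeR and DESeq2 held 3 each. The fitted log2 fold changes ran from -0.34 to 0.77 with a median of 0.04, beside 0.01 over all genes tested, and 58 of 92 were positive, against 50.6% of all genes. The medians were 0.05 in complex I, 0.02 in complexes II, III and IV, 0.06 in complex V and -0.08 in the assembly factors. Cox6a2, the muscle isoform of subunit 6a, was the member not tested, since it read 4.59 and 10.1 normalised counts in the controls and 0 and 5.16 in Setdb1 AKO.

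The 2 Setdb1 AKO mice stood on opposite sides of the controls across all complexes. Setdb1 AKO 1 was above both controls in 86 of 92 members, against 39.5% of all genes, and Setdb1 AKO 2 was below both in 67, against 39.1%. Both held at once in 61 members, against 8.09% of all genes. Setdb1 AKO 1 exceeded Setdb1 AKO 2 in 90 members, against 48.6% of all genes, the exceptions being Atp5g1 and the assembly factor Ndufaf4. The median log2 difference between these 2 mice was 0.44 over the members, while over all genes tested it was -0.00379. It was 0.46 in complex I, 0.36 in complex II, 0.42 in complex III, 0.46 in complex IV, 0.44 in complex V and 0.36 in the assembly factors. The controls differed less, with control 2 above control 1 in 83 members, against 50.6% of all genes, and a median log2 difference of -0.11 for control 1 minus control 2. Against the mean of the controls, the members' median was 0.26 in Setdb1 AKO 1 and -0.19 in Setdb1 AKO 2. The sign of every complex's median fold change therefore rested on single mice: without Setdb1 AKO 1 the medians of complexes I to V were -0.19, -0.20, -0.21, -0.17 and -0.14, and without Setdb1 AKO 2 they were 0.27, 0.26, 0.22, 0.25 and 0.29. No member was called in either of these fits (limma). In them 16 and 20 members (17.4% and 21.7%) had an unadjusted p below 0.05, against 17.8% and 17.6% of all genes, with the lone Setdb1 AKO library assumed to vary like the controls.

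**Figure D1:**
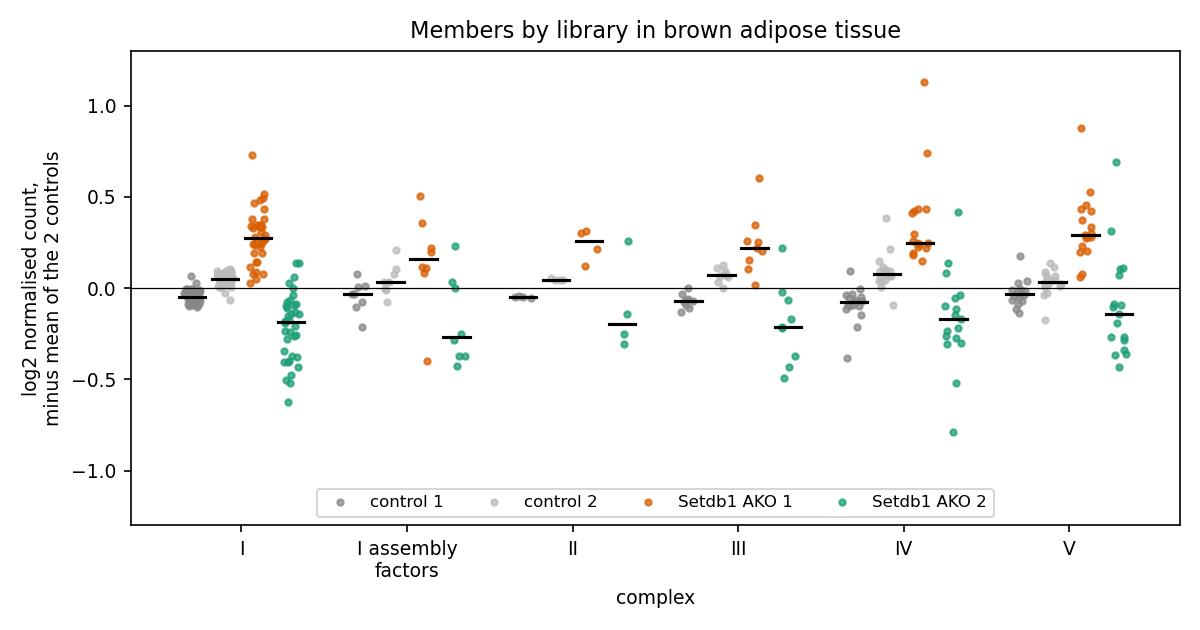
The y axis gives each tested member's log2 normalised count in a BAT library minus the mean of the 2 controls, with members grouped by complex on the x axis, 1 point per gene and a bar at the median. Setdb1 AKO 1 lies mostly above the controls and Setdb1 AKO 2 mostly below them in each complex, with medians over all members of 0.26 and -0.19.

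Other mitochondrial and marker genes also differed between the 2 Setdb1 AKO mice. The median log2 difference of Setdb1 AKO 1 minus Setdb1 AKO 2 was 0.26 in the TCA cycle list (13 genes), 0.12 in the 13 mitochondrially encoded subunits, 0.13 in adipocyte markers, -0.44 in macrophage markers and -0.66 in fibroblast markers. It was 0.57 in brown adipocyte markers, a list of 7 that includes the members Cox7a1 and Cox8b. The other lists were positive or near 0. Pericyte and smooth muscle markers gave 0.55, 6 skeletal muscle markers 0.38 and 2 lymphocyte markers 1.04. Endothelial, erythroid and germ line markers gave -0.01, 0.01 and 0.04. Summed over the list, macrophage markers read 3165 and 2358 normalised counts in controls 1 and 2 and 2853 and 3604 in Setdb1 AKO 1 and 2, and fibroblast markers read 3697 and 3113, then 3926 and 5647. Limma called 1 of 5 in each of these lists, against 1.68% of all genes. Cd14 read 493.5 and 528.6 in the controls and 1005 and 981 in Setdb1 AKO (limma, adjusted p = 0.0314). Pi16 read 63.3 and 36.5, then 229.5 and 562.3 (limma, adjusted p = 0.0327). Skeletal muscle markers read 729 and 1261 in the controls and 784 and 652 in Setdb1 AKO. The muscle genes Ckm, Myh1, Myh4 and Pvalb were at 0 in every BAT library but control 2. DESeq2, which called more genes than limma over all genes, called 1 of 5 macrophage and 2 of 5 fibroblast markers. It also called 1 of 7 brown adipocyte, 1 of 5 erythroid and 1 of 6 skeletal muscle markers. Of the brown adipocyte markers 2 were positive and Dio2 was the lowest. Dio2 read 18383 and 19932 in the controls and 12534 and 6460 in Setdb1 AKO (log2 fold change -1.09; limma, adjusted p = 0.135). The part of these cell types in the differences between mice was not tested. In bulk tissue, fewer cells of a type and less RNA per cell cannot be told apart.

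Complex I, which takes electrons from NADH, had BAT fold changes on both sides of 0. They ran from -0.27 for Ndufb7, an accessory subunit of the membrane arm, to 0.24 for Ndufs1, the large core subunit with iron-sulfur clusters. Ndufs1 read 7310 and 8077 normalised counts in the controls and 9689 and 8449 in Setdb1 AKO (limma, adjusted p = 0.519), so that both Setdb1 AKO mice lay above both controls. Ndufb7 read 4008 and 4550 in the controls, and 4532 and 2774 in Setdb1 AKO (limma, adjusted p = 0.610), so that the groups overlapped. The 7 core subunits, which carry out electron transfer and proton pumping with the mitochondrially encoded ones, had a median of 0.05 and the 29 accessory subunits a median of 0.05. The assembly factor Ndufaf4 was the only member with both Setdb1 AKO mice below both controls, where all genes gave 24.9%: it read 735 and 815 in the controls and 587 and 636 in Setdb1 AKO (log2 fold change -0.34, SE 0.15; limma, adjusted p = 0.311). Ndufaf4 was singled out after its values were seen.

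In complexes II and III, Sdha and Uqcrb had the highest fold changes in BAT. Sdha, the flavoprotein that oxidises succinate, read 28669 and 30575 normalised counts in the controls and 36511 and 35421 in Setdb1 AKO (log2 fold change 0.28, SE 0.21; limma, adjusted p = 0.540). The Setdb1 AKO mice were alike for Sdha, with a log2 difference of 0.04 between them, against 0.37 for Sdhd, a membrane anchor of complex II, which read 10288 and 10905 in the controls, 11520 in Setdb1 AKO 1 and 8898 in Setdb1 AKO 2. Uqcrb, a small subunit of complex III, read 5421 and 5913 in the controls and 8589 and 6590 in Setdb1 AKO (log2 fold change 0.41, SE 0.18; limma, adjusted p = 0.305). Leaving out Setdb1 AKO 1 gave 0.22 for it, and leaving out Setdb1 AKO 2 gave 0.60. Uqcr11 had the lowest fold change in complex III, at -0.18, and its groups overlapped, with 6958 and 8320 in the controls and 7702 and 5882 in Setdb1 AKO.

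Complex IV and complex V held the members with the lowest p in BAT. Cox6b2, the isoform of subunit 6b known from testis, read 56.9 and 70.0 normalised counts in the controls and 139 and 84.6 in Setdb1 AKO (log2 fold change 0.77, SE 0.32; limma, adjusted p = 0.275). The fold change fell to 0.42 when Setdb1 AKO 1 was left out and became 1.13 when Setdb1 AKO 2 was. Atp5g1, which with Atp5g2 and Atp5g3 encodes the c subunit of the ATP synthase rotor, read 265 and 208 in the controls and 339 and 380 in Setdb1 AKO (log2 fold change 0.61, SE 0.20; limma, adjusted p = 0.181). Atp5g1 was the only tested member in which Setdb1 AKO 2 was the highest library, and its partner genes had fold changes of -0.02 (Atp5g2) and 0.25 (Atp5g3). Atp5k, which encodes the small subunit e near the dimer interface of the synthase, read 2207 and 2258 in the controls and 4100 and 2772 in Setdb1 AKO (log2 fold change 0.59, SE 0.20; limma, adjusted p = 0.194), and was singled out after its values were seen. Leaving out Setdb1 AKO 1 gave 0.31 for Atp5k and leaving out Setdb1 AKO 2 gave 0.88. In all 3 genes both Setdb1 AKO mice lay above both controls. This held for 14 of 92 members, against 25.1% of all genes. Atp5d, the delta subunit, had the lowest fold change of complex V, at -0.15, with 16149 and 17116 in the controls, and 17525 and 12892 in Setdb1 AKO. Cox4i2, the isoform of subunit 4 known from lung and low oxygen, had the lowest of complex IV, at -0.19, with 70.6 and 81.2 in the controls and 101 and 43.3 in Setdb1 AKO.

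In the siRNA experiment, again no member passed the test, and most lay slightly below siNC. Setdb1 itself was not called by limma there, at a log2 fold change of -1.02, larger than that of any member. The lack of calls therefore does not show that the members were unchanged. Of 93 members, limma, edgeR and DESeq2 each called 0, against a background of 0.0394% of 15224 genes for limma (0.0328% higher and 0.00657% lower). At an unadjusted p below 0.05, limma held 5 members against 5.06% of all genes, edgeR 5 and DESeq2 1. The log2 fold changes had a median of -0.05, beside -0.00342 over all genes, and ran from -0.53 for Cox4i2 to 0.34 for Cox6b2. The complex medians were -0.07 in I, -0.06 in II, -0.09 in III, -0.01 in IV and -0.05 in V, with -0.05 in the assembly factors. Both siSetdb1 libraries lay below siNC in 46 members, against 33.8% of all genes, and both above in 11, against 34.1%. The libraries differed in this: siSetdb1 2 was below siNC in 78 members, against 50.3% of all genes, and siSetdb1 1 in 50, against 49.3%. Between them, siSetdb1 2 was the lower in 75 members, against 50.2% of all genes. The members' median log2 difference from siNC was -0.00787 in siSetdb1 1 and -0.11 in siSetdb1 2. The median of complex IV was 0.0236 without siSetdb1 2 and -0.0486 without siSetdb1 1, so its sign rested on single libraries. Macrophage and fibroblast markers were also below siNC, while other lists were mixed. All 5 macrophage markers were lower in both siSetdb1 libraries, with a median log2 fold change of -0.68. Their sums were 780 normalised counts in siNC and 413 and 341 in siSetdb1. Of these 5, limma called 0 and edgeR and DESeq2 1 each, every tool with 1 at an unadjusted p below 0.05. The 4 measured fibroblast markers had a median of -0.34 with none called by the 3 tools and 1 at an unadjusted p below 0.05 in each, and sums of 38132 in siNC and 29878 and 36391 in siSetdb1. Adipocyte markers had a median of 0.05. Pericyte and smooth muscle markers had a median of -0.07, but their sums rose from 10615 in siNC to 11802 and 13629 in siSetdb1. The 7 measured skeletal muscle markers had a median of -0.11. The 2 measured endothelial and 3 germ line markers had medians of 0.26 and 0.78, with low sums of 18.7 and 84.9 in siNC. The part of these cell types in the members' values was not tested.

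Sdhd, Cox7a2l, Atp5g1 and Ndufaf8 were the lower members and Cox8b the higher one at an unadjusted p below 0.05. Sdhd went from 14663 normalised counts with siNC to 12706 and 11145 with siSetdb1 (log2 fold change -0.30, SE 0.12; limma, adjusted p = 0.938). Cox7a2l, a Cox7a paralog that joins complexes III and IV into supercomplexes, read 5283 in siNC and 4583 and 4377 in siSetdb1 (log2 fold change -0.24, SE 0.11; limma, adjusted p = 0.941). Atp5g1 read 1987 in siNC and 1718 and 1563 in siSetdb1, a log2 fold change of -0.28 where BAT had given 0.61. The difference between these experiments was not tested, since they share no library and differ in material. Cox8b, the isoform of subunit 8 known from heart, muscle and brown fat, read 1684 in siNC and 1920 and 2247 in siSetdb1 (log2 fold change 0.30, SE 0.13; limma, adjusted p = 0.941). Its widely expressed partner Cox8a read 10859 in siNC and 9284 and 9662 in siSetdb1 (log2 fold change -0.20; limma, adjusted p = 0.941). Cox4i2, at the lower end of the list, read 92.8 in siNC, 91.2 in siSetdb1 1 and 44.8 in siSetdb1 2, so its change rested on siSetdb1 2 alone.

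In the 4-OHT experiment, with 1 library a group and no test, the members lay higher in 4-OHT as a group. The log2 ratio of 4-OHT to ETOH was above 0 in 87 of 93 members, against 51.7% of 13969 genes, with a median of 0.25 (1.19-fold) beside 0.01 over all genes. At least 1.2-fold higher values were found in 45 members, against 17.2% of all genes, while only 4 passed 1.5-fold, against 4.21%. The complex medians were 0.23 in I, 0.32 in II, 0.27 in III, 0.31 in IV and 0.28 in V, with 0.20 in the assembly factors, and scaling by library size alone left each of the 5 complex medians positive. Core subunits of complex I had a median of 0.28 and accessory subunits 0.23. Sdha went from 21680 counts in ETOH to 28206 in 4-OHT (ratio 1.35), Atp5b, the beta subunit of the synthase, from 76528 to 99226 (ratio 1.35), and Ndufs1 from 8172 to 10588 (ratio 1.34). Other catalytic subunits had smaller ratios, at 1.07 for the iron-sulfur protein Sdhb, 1.05 for cytochrome c1 (Cyc1) and 0.92 for the core subunit Ndufv2. Of these, only Ndufv2 was lower in 4-OHT than in ETOH. The members below 0 were Ndufv2, Ndufc2, Ndufaf3, Ndufa4l2, Cox4i2 and Atp5s.

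The members past 1.5-fold were Cox6b2, Ndufa12, Cox6a2 and Cox7a1. Cox6b2 went from 64 counts in ETOH to 220 in 4-OHT, a ratio of 3.49 (95% interval 2.69 to 4.79, counting error only). Ndufa12, an accessory subunit of complex I, went from 483 to 903 counts, a ratio of 1.94 (95% interval 1.74 to 2.17), and shares 20.7% of its 31-base words with another gene. Cox7a1, the isoform of heart, muscle and brown fat, went from 3935 to 5813 counts, a ratio of 1.53, and Cox6a2 from 76 to 119, a ratio of 1.61. At least 1.5-fold lower was Cox4i2 alone, against 6.12% of all genes, with 105 counts in ETOH and 58 in 4-OHT (ratio 0.58, 95% interval 0.41 to 0.80). Ndufa12 was singled out after its values were seen.

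Markers of other cell types moved in the same pair of libraries. All 5 macrophage markers were lower in 4-OHT, and their sum went from 93204 counts in ETOH to 51120 in 4-OHT, led by Lyz2 with 80947 and 43473. In siNC cells the 5 markers summed to only 780 normalised counts. None of 3 measured fibroblast markers was positive, against 51.7% of all genes, with sums of 269108 and 252486 counts. At least 1.2-fold higher were 5 of 5 adipocyte markers, against 17.2% of all genes, with sums of 184218 and 225890. Brown adipocyte markers, which include the members Cox7a1 and Cox8b, were positive in 6 of 7 with a median log2 ratio of 0.31. Pericyte and smooth muscle markers were positive in 1 of 4, with a median of -0.21. The 2 measured endothelial and 2 measured skeletal muscle markers had medians of -0.10 and 0.02. Lymphocyte, erythroid and germ line lists had 1 measured gene each, at -0.54, 0.07 and 2.26. The TCA cycle list was positive in 13 of 13 genes, against 51.7% of all genes, with a median log2 ratio of 0.25. Of 12 measured mitochondrially encoded subunits 10 were positive, with a median of 0.31. The part of a shift in cell types in the members' higher values was not tested.

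**Figure D2:**
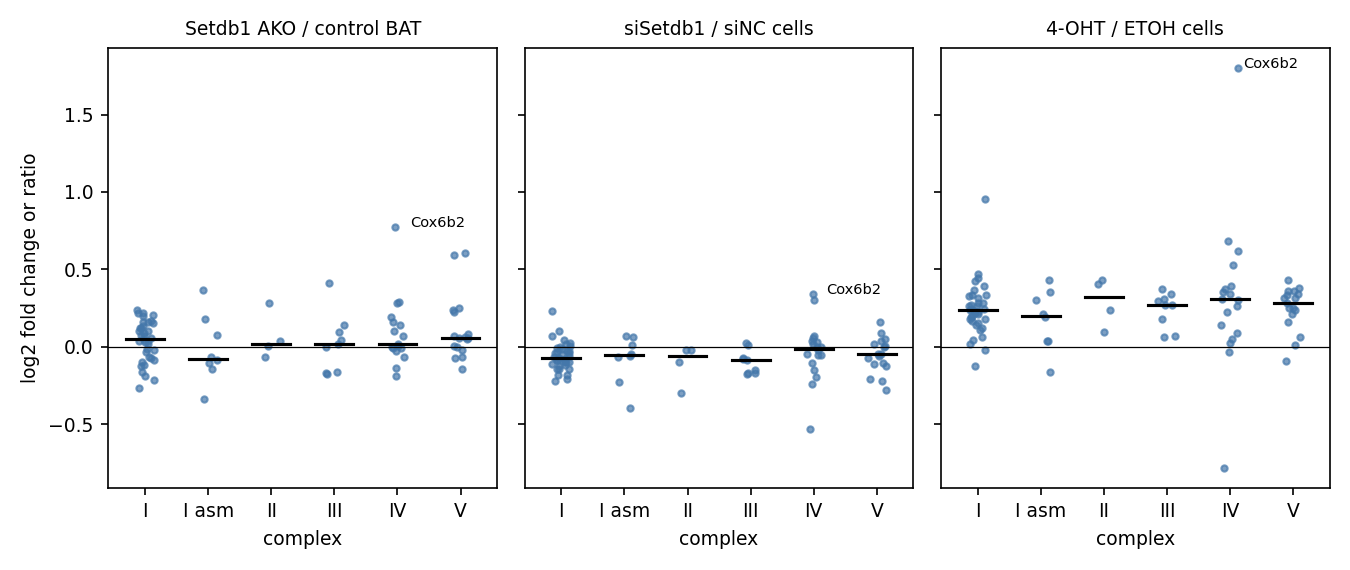
The y axis gives the fitted log2 fold change (BAT and siRNA) or log2 ratio (4-OHT, 1 library a group) of each member, by complex on the x axis, with a bar at each median. The medians lie near 0 in BAT (-0.08 to 0.06) and siRNA (-0.09 to -0.01) and between 0.20 and 0.32 in 4-OHT, and Cox6b2 is the highest member of each panel.

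Across the experiments, Cox6b2 was the only one of 92 members measured in all 3 whose fold change or ratio was at least 1.2-fold in the same direction, against 1.15% of 12215 genes higher and 0.982% lower in all 3. A count of 1 in 92 is near these shares, and Cox6b2 was not called in BAT or siRNA. The siNC library gave 70.1 normalised counts, against 106 and 74.3 for siSetdb1 (log2 fold change 0.34, SE 0.32; limma, adjusted p = 0.950), so siSetdb1 2 was only 0.08 above siNC on the log2 scale. Cox6b2 (ENSMUSG00000051811) lies on GRCm38 chromosome 7 from 4751792 to 4753094 on the minus strand, overlaps no exon of another gene and shares none of its 31-base words. Its level stayed low everywhere, between 1.93 and 7.35 RPKM (reads per kilobase of gene length, scaled to library size), while Cox6b1 gave 393 to 1440 on the same scale. As a ratio of levels per kilobase, Cox6b2 was 0.00260 and 0.00291 of Cox6b1 in the control mice and 0.00510 and 0.00442 in Setdb1 AKO. It was 0.00322 in siNC, 0.00523 and 0.00369 in siSetdb1, 0.00491 in ETOH and 0.0134 in 4-OHT. For comparison, the germ line gene Sycp3 read 68.8 and 76.1 normalised counts in the controls and 1366 and 1597 in Setdb1 AKO BAT, and 37 and 178 counts in ETOH and 4-OHT. In siRNA it read 46.4 in siNC and 60.8 and 116 in siSetdb1. Of 5 germ line genes listed, 3 were tested in BAT and limma called all 3 higher, against 1% of all genes. Sycp2 (11 and 6.1 normalised counts in the controls) and Tex19.1 (0 and 0) passed the filter only through their Setdb1 AKO values. The count of 3 of 3 is therefore partly set by the filter. Ddx4 and Dazl stayed at or below 7.2 normalised counts and were not tested. A link between these genes and Cox6b2 was not tested. Fam71e2, the nearest gene at 132 bases, had 2 counts in ETOH and 0 in 4-OHT. Kmt5c, 4278 bases away, had log2 changes of -0.70 in BAT (limma, adjusted p = 0.132), -0.37 in siRNA and 0.03 in 4-OHT.

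**Figure D3:**
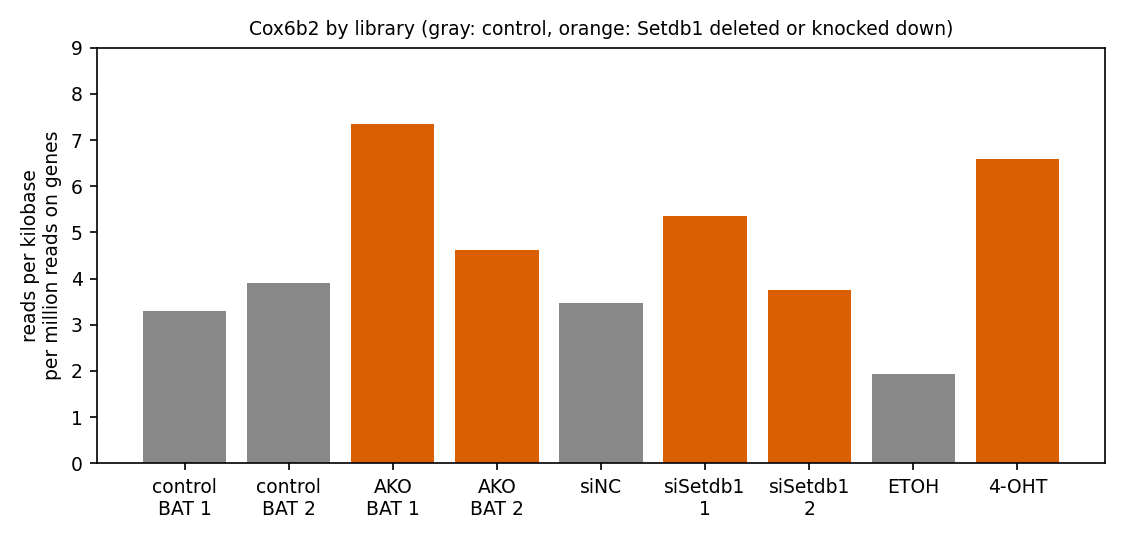
The y axis gives the RPKM of Cox6b2, scaled to reads on genes, with 1 bar per library on the x axis, gray for controls and orange for Setdb1 deletion or knockdown. Each orange bar is above its own experiment's gray bars, from 3.74 against 3.47 in siSetdb1 2 to 6.58 against 1.93 in 4-OHT.

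The respiratory chain took a large share of the RNA in BAT and siRNA cells and a smaller one in the ETOH and 4-OHT cells. The members held 5.07% and 5.28% of reads on genes in the control mice, 5.77% and 4.53% in Setdb1 AKO mice, 4.68% in siNC, 4.61% and 4.46% in siSetdb1, 1.92% in ETOH and 2.26% in 4-OHT. The order of complexes was alike in all 9 libraries at its ends, with complex V highest and complex II lowest. In control 1, complex V held 1.48%, complex I 1.19%, complex IV 1.15%, complex III 0.74% and complex II 0.39%. Complex IV stood closer to complex I in BAT (1.15% and 1.26% against 1.19% and 1.23% in the controls) than in siNC cells, with 0.81% against 1.06%. The mitochondrial genome took 12.7% and 16.6% of reads in control mice, 15.8% and 15.4% in those with Setdb1 AKO, 9.79% in siNC, 1.98% in ETOH and 2.66% in 4-OHT.

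**Figure D4:**
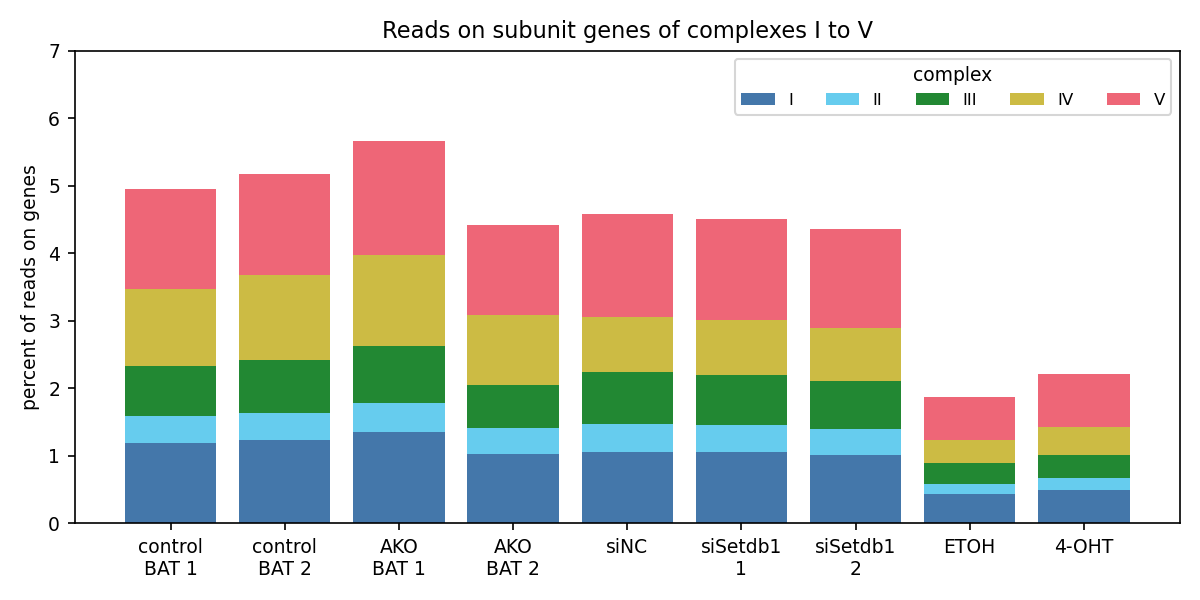
The y axis gives the percent of reads on genes that fell on subunit genes, with 1 bar per library on the x axis stacked by complex from I at the bottom to V at the top. The Setdb1 AKO mice are the highest and the lowest of the BAT bars, and the ETOH and 4-OHT bars are the lowest of all.

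Per kilobase of gene length, the median subunit level in the control mice was highest in complexes III and IV, at 478 and 532 and at 456 and 451 RPKM. Complex II gave 415 and 424, complex I 204 and 215 and complex V 171 and 171, against 15.3 and 15.2 for the assembly factors, which act in building complex I and are not part of it. The highest member of each complex was Cox6a1, the widely expressed isoform of subunit 6a of complex IV, at 2785 and 3040, Atp5b of complex V at 1276 and 1290, Uqcr10 of complex III at 851 and 903, Sdhd of complex II at 538 and 546 and Ndufa1 of complex I at 490 and 535. Subunits of 1 complex thus differed widely on this scale, from a mean of 2.74 (Ndufb2) to 512 (Ndufa1) in complex I. Ndufb2 read 255 and 233 normalised counts in the controls. It has a gene length of 5628 bases and shares 7.0% of its 31-base words with other genes. The part of either in its low value was not tested. The deposited gene length equals the joined length of all annotated exons in 87 of 93 members, so a gene with long alternative exons reads low on this scale. Atp5g1, for instance, has a length of 4912 bases.

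The ratios of isoforms within a library need no scaling between libraries and are given as descriptions. The ratio of Cox7a1 to Cox7a2 per kilobase was 1.01 and 1.35 in the controls, 1.16 and 1.23 in Setdb1 AKO, 0.82 in siNC, 0.76 and 0.88 in siSetdb1, 0.81 in ETOH and 1.01 in 4-OHT. The ratio of Cox8b to Cox8a was 0.59 and 0.96 in the controls and 1.11 and 0.63 in Setdb1 AKO, and the groups overlapped. It was 0.23 in siNC and 0.31 and 0.35 in siSetdb1, yet 0.13 in ETOH and 0.10 in 4-OHT, so the 2 cell experiments went in opposite directions. In BAT Cox8b itself swung with the mouse, with 7222 and 12254 normalised counts in the controls and 15725 and 8359 in Setdb1 AKO. Ndufa4l2, a paralog of Ndufa4 known to be induced by low oxygen, was 0.0156 and 0.0123 of Ndufa4 in the controls and 0.0154 and 0.0136 in Setdb1 AKO. It was 0.25 in siNC, 0.26 and 0.25 in siSetdb1, 0.89 in ETOH and 0.82 in 4-OHT. The ratio of Cox4i2 to Cox4i1 was 0.00454 and 0.00445 in the controls, 0.00504 and 0.00318 in Setdb1 AKO, 0.00651 in siNC, 0.00636 and 0.00341 in siSetdb1, 0.0103 in ETOH and 0.00455 in 4-OHT. Among the c subunit genes, Atp5g1 was 0.0298 and 0.0243 of Atp5g3 in the controls and 0.0289 and 0.0415 in Setdb1 AKO, and 0.12 to 0.17 of it in the cells.

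**Figure D5:**
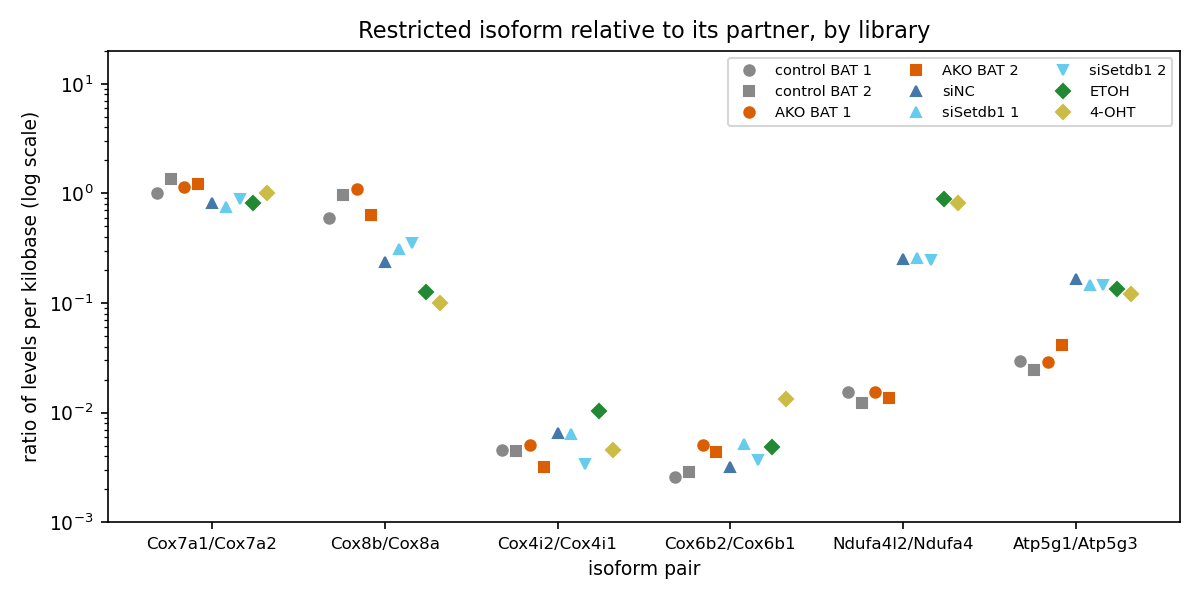
The y axis (log scale) gives the ratio of levels per kilobase of a restricted isoform or paralog to its partner, or of Atp5g1 to Atp5g3, with pairs on the x axis and 1 point per library. Cox8b and Ndufa4l2 separate BAT from the cells, at 0.59 to 1.11 against 0.10 to 0.35 and at 0.0123 to 0.0156 against 0.25 to 0.89.

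Genes that build or regulate the chain gave no call either, by limma, edgeR or DESeq2. Over all genes, limma called 1.68% in BAT and 0.0394% in siRNA, and held 17.7% and 5.06% at an unadjusted p below 0.05. In 4-OHT 51.7% of all genes were positive. At such shares, 0 calls in lists of this size is not a result about the genes listed. Of 40 measured assembly factors of complexes I to V outside the members, 0 were called in BAT, with 2, 2 and 1 at an unadjusted p below 0.05 by limma, edgeR and DESeq2 and a median of 0.05 (limma). In siRNA 0 of 40 were called, with 1, 3 and 0 at an unadjusted p below 0.05 by the same tools and a median of -0.06, and 32 of 39 were positive in 4-OHT with a median of 0.21. The lowest in BAT was Coa4, with 56.9 and 39.6 normalised counts in the controls and 24.7 and 27.9 in Setdb1 AKO (log2 fold change -0.83; limma, adjusted p = 0.300). Cox17, the copper chaperone of complex IV, read 130.3 and 144.1 in the controls and 92.6 and 73.3 in Setdb1 AKO (log2 fold change -0.73; limma, adjusted p = 0.196). Of 15 regulators, the 3 tools called 0 in BAT and 0 in siRNA, each with 1 at an unadjusted p below 0.05 in either experiment; the limma medians were -0.02 and 0.00194, and 8 of 15 were positive in 4-OHT with a median of 0.05. The regulator with the smallest p in BAT was Esrrg, an estrogen-related receptor, with 378.8 and 312.5 normalised counts in the controls and 533 and 566.4 in Setdb1 AKO (log2 fold change 0.67; limma, adjusted p = 0.115). The coactivator Ppargc1a, a known driver of mitochondrial genes, had log2 changes of 0.06 in BAT and -0.05 in siRNA, and 662 counts in ETOH against 923 in 4-OHT (log2 ratio 0.53). Nrf1, Gabpa, Esrra and Tfam had log2 fold changes of -0.03, 0.16, -0.20 and 0.22 in BAT, -0.21, -0.18, -0.38 and 0.05 in siRNA and log2 ratios of -0.08, 0.10, 0.23 and 0.05 in 4-OHT. The 13 TCA cycle genes, which supply the chain with electrons, had a median of 0.18 in BAT and -0.10 in siRNA (limma). The 3 tools called 0 of them in either experiment, with 0 at an unadjusted p below 0.05 in BAT and 1 in siRNA.

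The mitochondrially encoded partner subunits were placed otherwise among the mice than the nuclear ones. In BAT, limma and edgeR called 0 of 13, against 1.68% of all genes for limma. Each had 2 at an unadjusted p below 0.05, against 17.7% of all genes for limma. DESeq2, which called more genes than limma over all genes, called 2. The median log2 fold change was 0.30 (limma). Setdb1 AKO 2 was below both controls in 0 of the 13, against 39.1% of all genes and 67 of 92 nuclear members. The controls themselves differed, and the lower control was control 1 in 11 of the 13, against 50.6% of all genes. The median log2 difference of control 1 minus control 2 was -0.38, larger in size than the median fold change of 0.30. Both Setdb1 AKO mice lay above both controls in 5 of 13, against 25.1% of all genes. An example is mt-Co2, the copper-binding subunit of complex IV. It read 4785 and 5876 normalised counts in the controls and 9043 and 9240 in Setdb1 AKO (log2 fold change 0.79; limma, adjusted p = 0.0776). In siRNA the median was -0.00338, and limma and DESeq2 called 0 of 13 and edgeR 1, each with 2 at an unadjusted p below 0.05. In 4-OHT, where the median was 0.31, mt-Atp6 of complex V and mt-Co3 of complex IV lay below 0, with 472 counts in ETOH and 97 in 4-OHT (log2 ratio -2.21) for mt-Atp6 and 1581 and 1502 (log2 ratio -0.02) for mt-Co3. Libraries were made from mRNA captured on oligo(dT), and mitochondrial transcripts carry short poly(A) tails. Control 1 read 818298 normalised counts for mt-Co1, against 4785 for mt-Co2, 2860 for mt-Co3 and 4199 for mt-Atp6. Sequence shared with other genes was measured for the nuclear members only, so its part in the values of these 3 low genes was not tested.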

How the data were processed

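The 9 libraries of 3 experiments were analysed as the authors deposited them. The submitters' processing notes list STAR 2.7.10a, featureCounts 2.0.3, Trimmomatic 0.39, DESeq2 1.36.0 and the build GRCm38, with no role for each. The strand setting, the treatment of multi-mapping reads and the annotation release are not given in the sources used here. The deposited BAT and siRNA tables hold a signal per gene, the read count scaled by 1 factor per library, called normalised count here. The deposited 4-OHT table holds raw counts, scaled counts and FPKM, and the FPKM was not used. Fold changes (log2), p-values and gene lengths are also deposited, per the file headers, and of these only the gene length was used. Whole reads were recovered from the signal, with 100% of values within 0.05 reads of a whole number. The 2 siRNA tables were joined through their common siNC library.

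BAT and siRNA were each tested with limma 3.58.1 (lmFit, eBayes with trend) on log2(normalised count + 1), over all genes with at least 10 normalised counts in 2 BAT libraries or 1 siRNA library, at a Benjamini-Hochberg adjusted p below 0.05. This scale understates changes of low genes. The siRNA fit has 1 residual degree of freedom, so the single siNC library is taken to be as variable as the siSetdb1 ones. The 4-OHT experiment was described by log2 ratios of TMM-scaled CPM (prior count 2), for genes reaching 50 counts in ETOH or 4-OHT. Alternatives used edgeR 4.0.16 and DESeq2 1.42.0 (R 4.3.3) on recovered reads, other pseudocounts and filters, a replicate block and each replicate left out. Levels per length are RPKM computed here from the reads, the deposited gene length and the total reads on genes. The fits were tested on simulated data.

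Shared sequence was measured in 31-base words of the GRCm38 transcripts: 43 of 93 members share over 5% of theirs with other genes, and 20 have over 5% of exon bases under another gene. The genes named were, by rule, the lowest and highest fold change and highest level of each complex, the isoform sets, the extremes in siRNA and 4-OHT and the members at least 1.2-fold on 1 side in all 3 experiments. Members, lists and rules were chosen with earlier results of these data known.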

Additional observations from a re-analysis of the deposited data

How the results depend on the processing

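No member was called in BAT or siRNA under any alternative that gave a test, which included other pseudocounts and filters, TMM scaling, edgeR, DESeq2 and, in BAT, a replicate block and each replicate left out. The number of all genes called in BAT, 243 with limma, was 11 with no filter on low values, 651 with DESeq2 and between 22 and 157 with a replicate left out. In siRNA it was 6 with limma, 0 with no filter, 29 with a filter of 50 normalised counts, 19 with TMM scaling, 37 with edgeR and 11 with DESeq2. Control and Setdb1 AKO mice share replicate numbers, but these did not pair them, with a correlation of -0.0151 between their differences over 14466 genes. The replicate block gave 0 called members and 299 called genes. In siRNA and 4-OHT no paired analysis was possible because 1 group had a single library in siRNA and both groups did in 4-OHT.

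With a replicate left out, the BAT medians ranged from -0.20 to 0.26 in complex II, from -0.21 to 0.22 in complex III and from -0.14 to 0.29 in complex V. The siRNA medians ranged from -0.12 to -0.00932 in complex I, -0.0950 to -0.0771 in complex II, -0.15 to -0.0896 in complex III, -0.0486 to 0.0236 in complex IV and -0.0986 to -0.0114 in complex V. In 4-OHT, scaling by library size alone gave medians of 0.17, 0.25, 0.21, 0.24 and 0.22 for complexes I to V, and grouping by name prefix alone gave 0.22 for complex I and 0.33 for complex IV.

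Signs of single members near 0 changed with the setting. In BAT, TMM scaling, edgeR and DESeq2 gave 0.00637, 0.0165 and 0.0106 for Uqcr10, 3.75e-04, 0.0180 and 0.0120 for Cox6b1, and 0.00787, 0.0316 and 0.0259 for Ndufa4l2, against -0.00407, -0.01 and -0.00251 with limma. In siRNA, edgeR and DESeq2 gave 8.41e-04 and 0.00445 for Cox6a2, against -0.02 with limma.

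With a replicate left out, BAT fold changes ranged from -0.0884 to 0.20 for Atp5b, -0.37 to 0.0760 for Atp5d, -0.11 to 0.0593 for Atp5g2, -0.31 to 0.25 for Cox4i1, -0.79 to 0.41 for Cox4i2, -0.15 to 0.18 for Cox6a1, -0.26 to 0.24 for Cox6b1, -0.0358 to 0.42 for Cox7a1, -0.12 to 0.44 for Cox7a2, -0.52 to 0.24 for Cox7a2l and -0.17 to 0.74 for Cox8b. They ranged from -0.28 to 0.15 for Ndufa4, -0.30 to 0.30 for Ndufa4l2, -0.62 to 0.0857 for Ndufb7, -0.25 to 0.12 for Sdhd, -0.21 to 0.20 for Uqcr10 and -0.37 to 0.0176 for Uqcr11. In siRNA they ranged from -0.12 to 0.00923 for Cox4i1, -0.0228 to 0.0125 for Cox6a1, -0.28 to 0.24 for Cox6a2, -0.11 to 0.0224 for Cox7a2, -0.0319 to 0.11 for Ndufa4, -0.0653 to 0.13 for Ndufa4l2, -0.14 to 0.0515 for Ndufb7, -0.0636 to 0.00701 for Ndufs1, -0.0703 to 0.0240 for Sdha, -0.15 to 0.00343 for Uqcr10 and -0.00519 to 0.0564 for Uqcrb.

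The 4-OHT ratios have no replicate and their intervals cover counting error only. Depth limits the lowest members, such as Cox6a2 with 0 to 10.1 normalised counts in BAT. Values of the 43 members that share sequence with other genes are less certain one by one; as a group, the median log2 difference between the Setdb1 AKO mice was 0.43 in those 43 and 0.45 in the others tested.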

Other observations

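The ETOH cells and the siNC cells, both controls of primary brown adipocyte cultures, differed in the level of the respiratory chain. As shares of all reads on genes, 92 of 93 members were lower in ETOH than in siNC, with a median ratio of 0.43 and a range from 0.0715 for Atp5k to 2.47 for Cox6a2. The median was 0.40 in complex I, 0.36 in complex II, 0.44 in complex III, 0.56 in complex IV and 0.40 in complex V. The macrophage marker Lyz2 had 80947 counts in ETOH and 527 normalised counts in siNC. These libraries belong to separate experiments and were not compared by a test.

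Cox6a1 was the highest member per kilobase in the control mice and in siNC, at 1935 RPKM, but gave only 229 in ETOH, below Cox6b1 at 393.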
